A study of Homo sapiens with 10 samples.

Results

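The 9 genes ESR1, PGR, GATA3, FOXA1, XBP1, SPDEF, TFF1, TFF3 and GREB1 were followed in breast cancer cells as the hormone receptors of the luminal state, the transcription factors that work with them and genes induced by estrogen. They were chosen by gene symbol, with earlier results of these data known. All 9 of the 9 symbols were found once each among the 23426 genes of every sample. Transcriptomes were measured in MDA-MB-468, an established cell line labelled basal, and in ZR75-1, an established line labelled luminal. Each line was kept for 6 h in DMSO (2 samples) or in PKC412 (3 samples), which gives 4 groups and 10 samples. PKC412, also called midostaurin, blocks a broad range of kinases. DMSO is a solvent and was the control. The dose of PKC412 was 1 µM by the labels. Some figure legends name another dose. The methods speak of triplicates. For DMSO, 2 samples per line were analysed here. Each subtype was represented by 1 line, so a difference between subtypes and a difference between these 2 lines cannot be told apart.

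ESR1 encodes the estrogen receptor alpha, a transcription factor that is activated by its hormone and binds DNA at estrogen response elements, in many places next to the pioneer factor FOXA1, which opens chromatin, and to GATA3. This circuit defines luminal breast epithelium and most hormone-dependent breast cancers, and tumours are tested for both hormone receptors to guide endocrine therapy. Triple-negative tumours, most of them basal-like, lack both receptors and amplification of ERBB2.

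The values are FPKM, a level per length of transcript that can be compared between genes, and tests were made on log2(FPKM + 1) with limma across 16071 genes, with p-values adjusted by Benjamini-Hochberg over all of them and a threshold of 0.05. All 9 genes passed the filter, a mean above 0.1 FPKM in at least 1 group. FPKM sums per sample ran from 599228 to 835069. The number of reads behind a value is unknown, so precision rests on the spread between samples. The samples also differed in how far a gene's level followed the GC content of its transcript. The slope of the deviation from the line mean on GC content ran from -0.287 to 0.373 log2 units per 10 percentage points among the MDA-MB-468 samples and from -0.356 to 0.342 among the ZR75-1 samples. In MDA-MB-468 both DMSO samples had higher slopes than all 3 PKC412 samples, and in ZR75-1 the slopes of the groups overlapped.

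The labels were set against markers. EPCAM, CDH1, KRT8 and KRT18, which mark epithelial cells, were all above 1 FPKM in all 10 samples. Of 10 transcription factors of basal cells, a list chosen with earlier results of these data known, 7 were expressed enough to be tested. In DMSO, 6 were lower in ZR75-1 than in MDA-MB-468, beside 26.5% of all genes called lower. The list median was -1.40 on the log2 scale beside -0.11 over all genes. The largest of these differences were those of FOXC1 (-2.39), EN1 (-2.04), SOX9 (-1.67) and ID4 (-1.40), all factors that control development and cell identity. Of the 7, BCL11A, ID4 and SOX11 passed the filter only through MDA-MB-468, which fixed their direction. SNAI2, SOX10 and TP63 were not tested and did not mark MDA-MB-468. In DMSO, SOX10 was listed at 0 in both lines and SNAI2 at 0 in MDA-MB-468. The DMSO means of TP63 were 0.0337 FPKM in MDA-MB-468 and 0.0380 FPKM in ZR75-1. SOX11 and these untested genes are named after their values were seen. The summed level of all 10 factors was 22.7 to 26.3 FPKM in the DMSO samples of MDA-MB-468 and 3.71 to 5.67 FPKM in those of ZR75-1. Markers of fibroblasts, endothelium and blood were near 0 in most cases: 3 of 13 were tested, and CD14 (-3.51 between the lines) and PECAM1 (-0.54) were higher in MDA-MB-468 and COL1A1 (0.86) in ZR75-1. The summed level of these 13 genes was 21.5 to 24.8 FPKM in MDA-MB-468 and 3.30 to 3.87 FPKM in ZR75-1 in DMSO. CD14 made up most of it in MDA-MB-468, at 20.2 and 23.3 FPKM, and COL1A1 in ZR75-1, at 2.25 and 2.75 FPKM. In RNA of whole cultures, fewer cells with a transcript and less of it per cell cannot be told apart.

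ESR1 lies on the plus strand at chr6:151656691-152129619 and PGR, the progesterone receptor gene and itself a classical estrogen-induced gene, on the minus strand at chr11:101029624-101130524 (GRCh38, GENCODE 29). The authors' alignment used hg19, and these positions serve only to say where the genes are. In DMSO, ESR1 was at 0.147 and 0.174 FPKM in MDA-MB-468 and at 2.63 and 5.09 FPKM in ZR75-1. In PKC412 it was at 0.461, 0.214 and 0.240 FPKM in MDA-MB-468 and at 5.02, 2.77 and 8.28 FPKM in ZR75-1. Every ZR75-1 sample was above every MDA-MB-468 sample, and within ZR75-1 the samples of 1 treatment differed from each other more than the means of the treatments. ESR1 was higher in ZR75-1 by 2.02 ± 0.40 on the log2 scale in DMSO (SE; limma adjusted p = 0.0039) and by 2.19 ± 0.32 in PKC412 (adjusted p = 0.000589). The ratio of mean FPKM in DMSO was 24.1. In the receptor-positive line the transcript was still no abundant one: ESR1 exceeded 70.0% to 76.1% of all genes in the ZR75-1 samples and 41.9% to 45.4% in the MDA-MB-468 samples.

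PGR was listed at 0 in all 5 MDA-MB-468 samples. In ZR75-1 it was at 2.45e-05 and 0.257 FPKM in DMSO and at 0.0782, 0.549 and 0.217 FPKM in PKC412, so that 1 DMSO sample was next to 0 as well. The difference between the lines was 0.17 ± 0.16 on the log2 scale in DMSO (adjusted p = 0.457) and 0.34 ± 0.13 in PKC412 (adjusted p = 0.0519), and neither passed the threshold. The second of these passed it in 7 of 20 alternative analyses, with adjusted p-values from 0.0101 to 0.121. Its level was thus low in both lines, also in the one labelled luminal.

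The 4 transcription factors followed the same order between the lines, with a different floor in MDA-MB-468 for each. GATA3, at chr10:8045378-8075203 on the plus strand, encodes a zinc finger factor of luminal cell fate. It was at 4.96 and 5.58 FPKM in MDA-MB-468 and at 46.7 and 57.8 FPKM in ZR75-1 in DMSO, a difference of 3.08 ± 0.16 on the log2 scale (adjusted p = 3.23e-06). FOXA1, at chr14:37589984-37596059 on the minus strand, was at 1.05 and 1.58 FPKM in MDA-MB-468 and at 8.86 and 19.7 FPKM in ZR75-1 in DMSO. Its difference was 2.64 ± 0.42 (adjusted p = 0.00121), with no overlap of the samples. XBP1, at chr22:28794555-28800597 on the minus strand, encodes the factor that drives the unfolded protein response once its RNA has been spliced in the cytoplasm, and the gene-level FPKM do not separate the spliced from the unspliced form. XBP1 was at 58.5 and 86.2 FPKM in MDA-MB-468 and at 327 and 718 FPKM in ZR75-1 in DMSO, a difference of 2.75 ± 0.35 (adjusted p = 0.000355). SPDEF, an ETS factor of secretory and luminal epithelium at chr6:34537802-34556333 on the minus strand, was at 76.6 and 61.7 FPKM in MDA-MB-468 and at 241 and 179 FPKM in ZR75-1 in DMSO. Its difference of 1.58 ± 0.25 (adjusted p = 0.00116) was the smallest of the 4. In the 5 MDA-MB-468 samples XBP1 exceeded 93.2% to 97.3% of all genes and SPDEF 93.4% to 94.7%, while ESR1 did not go above 0.461 FPKM.

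The promoters of these genes are shown because 8 of the 9 genes were higher in the same line, and they let the letters before each start be read. Windows of RefSeq on GRCh38.p14 were found for 6 of the 9 genes, with 19 starts in all. TFF1, TFF3 and GREB1 were not matched. The 250 bases before the most upstream start of the receptor gene and of 3 factors are given 5′ to 3′ on the strand of the gene. Capitals mark GGTCA, the core of the estrogen response element, and the forkhead motif TGTTTGC, on either strand, so that TGACC and GCAAACA are the same motifs read on the other strand.
ESR1 promoter, plus strand, chr6:151656422-151656671: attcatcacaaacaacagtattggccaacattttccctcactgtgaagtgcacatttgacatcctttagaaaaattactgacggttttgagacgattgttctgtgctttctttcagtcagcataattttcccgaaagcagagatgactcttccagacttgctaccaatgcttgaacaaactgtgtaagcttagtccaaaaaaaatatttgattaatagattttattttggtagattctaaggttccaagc
GATA3 promoter, plus strand, chr10:8045083-8045332: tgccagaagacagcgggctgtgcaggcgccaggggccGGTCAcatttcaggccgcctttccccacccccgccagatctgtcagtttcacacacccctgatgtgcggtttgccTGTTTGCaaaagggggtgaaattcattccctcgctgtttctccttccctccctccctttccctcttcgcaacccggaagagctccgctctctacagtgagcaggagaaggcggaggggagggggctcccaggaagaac
XBP1 promoter, minus strand, chr22:28800570-28800819: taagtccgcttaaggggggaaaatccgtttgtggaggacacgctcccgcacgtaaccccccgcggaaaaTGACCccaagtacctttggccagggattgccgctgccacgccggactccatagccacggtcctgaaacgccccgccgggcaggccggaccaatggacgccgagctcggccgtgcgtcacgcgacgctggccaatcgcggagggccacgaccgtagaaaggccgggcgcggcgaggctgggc
SPDEF promoter, minus strand, chr6:34556330-34556579: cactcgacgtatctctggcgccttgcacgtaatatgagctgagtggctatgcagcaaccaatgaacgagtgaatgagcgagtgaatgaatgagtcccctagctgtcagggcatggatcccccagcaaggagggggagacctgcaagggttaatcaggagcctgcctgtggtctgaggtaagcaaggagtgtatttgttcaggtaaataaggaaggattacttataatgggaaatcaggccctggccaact

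Both strands of all 35116 windows, from 250 bases before to 50 after each start, were searched for 6 motifs. The estrogen response element, the palindrome of this core with its spacer, was in 0 of the 19 windows of these genes and in 0.0570% of all windows. GGTCA alone was in 8 of the 19 windows, belonging to 4 of the 6 genes (ESR1, PGR, GATA3 and XBP1), and in 37.4% of all windows, so that its share in these windows was close to that in all. The matching windows of PGR overlap and hold the same match, which is counted in each. Any full element also holds the core. TGTTTGC was in 1 window of GATA3 (positions -138 to -132 from the start) and in the window of FOXA1 itself (-235 to -229), and in 3.89% of all windows. TGTTTAC (3.42% of all windows), the GATA motif AGATAA (10.3%) and TGACGTG, which XBP1 can bind (1.97%), were in 0 of the 19. A match is a string of letters and not a bound site, and distal enhancers were not searched.

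Of the 9 genes, the estrogen-induced TFF1, TFF3 and GREB1 showed the widest differences, unlike PGR, which is also induced by estrogen. TFF1 and TFF3 encode small secreted trefoil proteins and lie near each other on the minus strand at chr21:42362282-42366594 and chr21:42311667-42315651, and GREB1, at chr2:11482341-11642788 on the plus strand, encodes a cofactor of the estrogen receptor. In DMSO, TFF1 was at 3.46 and 3.23 FPKM in MDA-MB-468 and at 5379 and 4240 FPKM in ZR75-1, where it exceeded at least 99.9% of all genes in every sample. Its difference was 10.10 ± 0.26 on the log2 scale (adjusted p = 7.37e-08). TFF3 was at 0.0816 FPKM and listed at 0 in the DMSO samples of MDA-MB-468, and at 886 and 628 FPKM in those of ZR75-1, a difference of 9.49 ± 0.20 (adjusted p = 2.73e-08). GREB1 was at 0.0772 and 0.0995 FPKM in MDA-MB-468 and at 21.6 and 31.0 FPKM in ZR75-1, a difference of 4.63 ± 0.28 (adjusted p = 5.65e-06). TFF2, the remaining trefoil gene, named here after its values were seen, did not share this level and stayed between 0 and 0.135 FPKM in all 10 samples.

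In DMSO, 8 of the 9 genes were called higher in ZR75-1 and 0 lower, beside 15.9% of all genes called higher and 26.5% called lower, and all 9 had samples that did not overlap in that direction, beside 27.3% of all genes. In PKC412 the same counts were 8, with PGR again the exception, beside 21.6% of all genes higher and 37.0% lower, and 9 beside 24.2%. PGR, TFF3 and GREB1 passed the filter only through ZR75-1, so the filter fixed their direction in these counts. For PGR in DMSO, the lack of overlap rests in part on 2.45e-05 FPKM in 1 ZR75-1 sample against 0. The median difference of the 9 genes was 2.75 in DMSO and 2.70 in PKC412, while that of all genes was -0.11 and -0.19. Under a scaling by median ratios, which brings the median of all genes in DMSO to 0, higher genes made up 47.2% of all calls between the lines in place of 37.5%, and 48.2% in place of 36.9% in PKC412. The same 8 genes were called in DMSO in all 21 alternative analyses, with differences that kept their sign. The contrasts in DMSO and in PKC412 rest on different samples, and both were made in 1 fit.

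**Figure D1:**
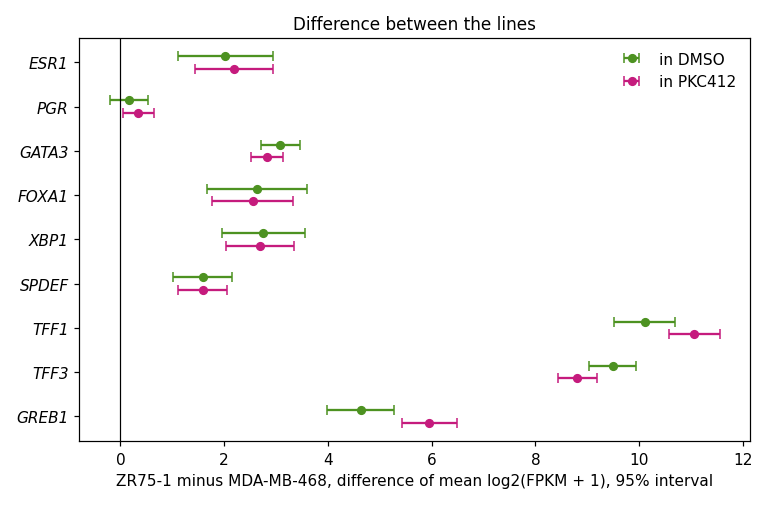
Difference between ZR75-1 and MDA-MB-468 in mean log2(FPKM + 1) for each gene, in DMSO (green) and in PKC412 (magenta), with 95% intervals from limma. The 2 trefoil genes lie furthest from 0, between 8.81 and 11.06, and the interval of PGR in DMSO crosses 0.

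The order of the levels differed between the lines. In DMSO-treated ZR75-1 cells it ran from TFF1 through TFF3, XBP1, SPDEF, GATA3, GREB1, FOXA1 and ESR1 to PGR, and of these neighbours only TFF3 and XBP1 had overlapping samples. In PKC412-treated ZR75-1 cells XBP1 stood above TFF3 without overlap, and GREB1 stood next to GATA3, just above it, with overlap. In DMSO-treated MDA-MB-468 cells the order began with XBP1 and SPDEF, which overlapped, and went on through GATA3, TFF1, FOXA1 and ESR1 to GREB1, TFF3 and PGR at or near 0. GREB1 and TFF3 overlapped there, as did TFF3 and PGR. In PKC412-treated MDA-MB-468 cells FOXA1 and TFF1 overlapped, and PGR and TFF3 were listed at 0 in all 3 samples.

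The genes nearest to ESR1 over the 10 samples, by the root mean square difference of log2(FPKM + 1), were BCL2 (0.18), THSD4 (0.21), EFR3B (0.26), CHN1 (0.26) and TMTC1 (0.28). BCL2, which encodes an inhibitor of apoptosis, had means of 0.387 and 0.339 FPKM in MDA-MB-468 and of 4.07 and 5.94 FPKM in ZR75-1, in DMSO and PKC412. The measure weighs level and pattern together, and all 10 points share the 2 lines.

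The 6 h treatment was compared with DMSO within each line to see which of these genes respond to the kinase inhibitor. In ZR75-1, 0 of the 9 genes passed the threshold in limma, beside 0.946% of all genes. GREB1, TFF3 and XBP1 were the genes whose samples did not overlap. GREB1 was at 21.6 and 31.0 FPKM in DMSO and at 57.2, 53.9 and 94.1 FPKM in PKC412, a difference of 1.32 ± 0.25 on the log2 scale (unadjusted p = 0.000797, adjusted p = 0.0685). All 3 treated samples were above both controls, and the ratio of means was 2.60. TFF3 was at 886 and 628 FPKM in DMSO and at 534, 440 and 379 FPKM in PKC412, all 3 below both controls, with a difference of -0.74 ± 0.18 (unadjusted p = 0.00345, adjusted p = 0.165). XBP1 was at 327 and 718 FPKM in DMSO and at 813, 970 and 1047 FPKM in PKC412, all 3 above both controls, with a difference of 0.95 ± 0.32 (unadjusted p = 0.0172, adjusted p = 0.332). The share of all genes without overlap was 14.8% upward, where 2 of the 9 lay, and 6.98% downward, where 1 lay. The 2 trefoil genes were on opposite sides of 0. TFF1 was at 5379 and 4240 FPKM in DMSO and at 7137, 7691 and 4798 FPKM in PKC412, a difference of 0.42 ± 0.24 (adjusted p = 0.549) with overlap.

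The receptor and its partners did not pass either. The difference of ESR1 in ZR75-1 was 0.34 with a 95% interval from -0.50 to 1.18, and that of FOXA1, at 8.86 and 19.7 FPKM in DMSO and at 19.4, 16.3 and 31.9 FPKM in PKC412, was 0.66 with an interval from -0.21 to 1.54. Both intervals reach beyond 1 log2 unit upward. GATA3, at 46.7 and 57.8 FPKM in DMSO and at 44.2, 43.0 and 54.7 FPKM in PKC412, had a difference of -0.14 with a narrower interval from -0.49 to 0.21. The interval of SPDEF ran from -0.37 to 0.67 and that of PGR from -0.16 to 0.51.

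The GC slope of a sample moved with several of these values. The ZR75-1 samples with the slopes -0.356, -0.192, -0.107, 0.314 and 0.342 had ESR1 at 8.28, 5.09, 5.02, 2.63 and 2.77 FPKM, and FOXA1 at 31.9, 19.7, 19.4, 8.86 and 16.3 FPKM. The 2 samples with the highest slopes, 1 from each treatment, were lowest in both genes. SPDEF, with the richest transcript in GC of the 9 (64.6%, against 46.1% for ESR1 and a median of 50.4% over expressed genes), was at 181, 179, 222, 241 and 304 FPKM in the same order. The FPKM were then adjusted for GC content and transcript length, an alternative added with the data known. In ZR75-1 the samples of a treatment drew together for TFF1, GATA3 and GREB1, and also for ESR1, FOXA1, SPDEF and TFF3. In PKC412 the SD of XBP1 went from 120 to 138 FPKM and that of PGR from 0.242 to 0.451 FPKM. Adjusted TFF1 was at 4238 and 4296 FPKM in DMSO and at 7063, 6725 and 6945 FPKM in PKC412. Adjusted GATA3 was at 56.7 and 57.1 FPKM in DMSO and at 43.3, 43.5 and 46.0 FPKM in PKC412. Adjusted GREB1 was at 26.4 and 31.6 FPKM in DMSO and at 57.5, 57.8 and 70.0 FPKM in PKC412. TFF1, GATA3 and GREB1 had no overlapping samples in ZR75-1 after the adjustment, and neither did XBP1, TFF3 or SPDEF. The share of all genes without overlap on the adjusted values was not counted, so these genes cannot be set against the rest. On the deposited values that share was 21.7% over both directions.

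On the adjusted values 3 of the 9 genes passed the threshold in ZR75-1, beside 456 of all 16071 genes (2.84%), where the deposited FPKM gave 152. GREB1 was higher in PKC412 by 1.07 ± 0.12 (adjusted p = 0.00339) and TFF1 by 0.70 ± 0.09 (adjusted p = 0.0067), and GATA3 was lower, at -0.36 ± 0.07 (adjusted p = 0.0343). ESR1 was at 3.88 and 4.52 FPKM in DMSO and at 4.63, 3.65 and 5.19 FPKM in PKC412 after the adjustment, with a difference of 0.07 ± 0.13 (adjusted p = 0.828). With the replicate number as a block added to the adjustment, GREB1 alone stayed past the threshold (1.01, adjusted p = 0.0287), and under median ratios on the deposited scale GREB1 alone passed (1.16, adjusted p = 0.0145). Over all 22 alternatives the adjusted p-value ran from 0.00339 to 1 for GREB1, from 0.0067 to 1 for TFF1 and from 0.0343 to 1 for GATA3.

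**Figure D2:**
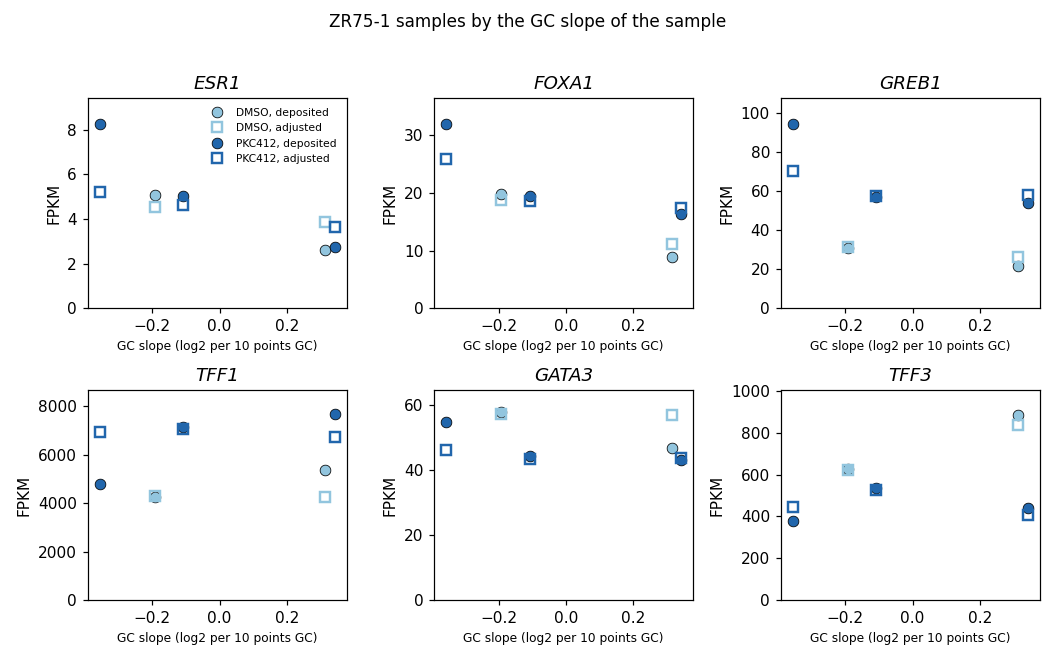
FPKM of 6 genes in the 5 ZR75-1 samples against the slope of each sample's values on transcript GC content, as deposited (filled circles) and after adjustment for GC content and length (open squares), for DMSO (light) and PKC412 (dark). Deposited ESR1 falls from 8.28 to 2.77 FPKM between the samples with the lowest and the highest slope, and the adjusted GREB1 and TFF1 values of the 2 treatments are apart.

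In MDA-MB-468, 0 of the 9 genes passed the threshold in limma, beside 1.26% of all genes. PGR, TFF3 and GREB1 passed the filter only through ZR75-1. They were at or near 0 in MDA-MB-468, where a fall could hardly be seen and a rise by a given ratio moves log2(FPKM + 1) little. XBP1 was at 58.5 and 86.2 FPKM in DMSO and at 162, 129 and 142 FPKM in PKC412, a difference of 1.01 ± 0.32 (unadjusted p = 0.0131, adjusted p = 0.216). FOXA1 was at 1.05 and 1.58 FPKM in DMSO and at 3.77, 2.08 and 2.92 FPKM in PKC412, a difference of 0.75 ± 0.38 (adjusted p = 0.327). In both genes, and in ESR1, all treated samples were above both controls. This was so for 39.6% of all genes in this line, and the median of all genes lay 0.11 above 0, so the 3 of 9 found here were not more than in the rest. TFF1 was at 3.46 and 3.23 FPKM in DMSO and at 1.42, 2.47 and 2.20 FPKM in PKC412, all 3 below both controls, with a difference of -0.54 ± 0.24 (adjusted p = 0.305). Of all genes, 16.3% had this pattern. GATA3, at 4.96 and 5.58 FPKM in DMSO and at 6.31, 5.30 and 5.85 FPKM in PKC412, and SPDEF, at 76.6 and 61.7 FPKM and at 70.8, 81.5 and 76.2 FPKM, overlapped between treatments. GREB1 stayed between 0.0496 and 0.107 FPKM in all 5 samples. Because the GC slopes of the 2 treatments did not overlap in this line, a response to PKC412 in GC-rich or GC-poor transcripts and a technical difference cannot be told apart here. On the adjusted values 0 of the 9 genes passed the threshold, beside 3.62% of all genes, and XBP1 had a difference of 0.88 ± 0.24 (adjusted p = 0.096).

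**Figure D3:**
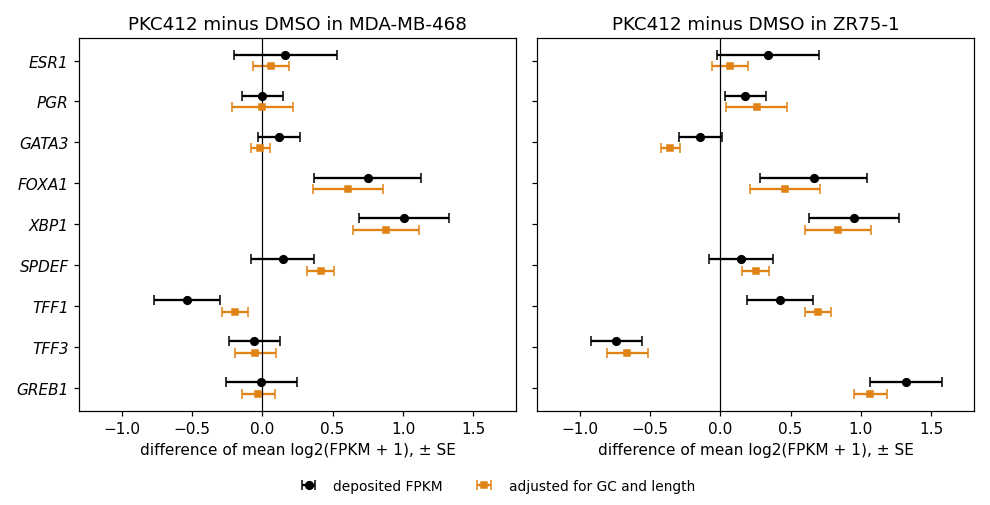
Difference between PKC412 and DMSO in mean log2(FPKM + 1) with its SE for each gene in MDA-MB-468 (left) and ZR75-1 (right), on the deposited FPKM (black circles) and after adjustment for GC content and transcript length (orange squares). GREB1 lies at 1.32 in ZR75-1 and near 0 in MDA-MB-468, where its FPKM are also near 0. TFF1 lies on opposite sides of 0 in the 2 lines, and XBP1 lies near 1 in both.

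The difference between the changes in the 2 lines was tested as an interaction. In limma 0 of the 9 genes passed the threshold, beside 0.268% of all genes. The largest differences among the 9 were those of GREB1, TFF1 and TFF3. The change of GREB1 was larger in ZR75-1 by 1.33 ± 0.36 (adjusted p = 0.335), that of TFF1 by 0.96 ± 0.33 (adjusted p = 0.544), and that of TFF3 differed by -0.68 ± 0.26 (adjusted p = 0.601). In MDA-MB-468 both GREB1 and TFF3 were close to 0 FPKM, where a fall could hardly be seen. The change of XBP1 differed by -0.06, with a 95% interval from -1.09 to 0.98. On the GC-adjusted values 209 of all genes passed (1.30%), where the deposited FPKM gave 43. Among the 9 genes TFF1 (0.89 ± 0.13, adjusted p = 0.0172) and GREB1 (1.09 ± 0.17, adjusted p = 0.0213) passed, and with the replicate block added to that adjustment 0 of the 9 did.

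Other genes of the pathway were described from lists chosen by function, with earlier results of these data known. Of 24 further estrogen receptor target genes, all tested, 17 were higher and 2 lower in ZR75-1 in DMSO, beside 15.9% and 26.5% of all genes. Their median was 1.18 beside -0.11 over all genes. The largest differences were those of AGR2 (7.15), a protein disulfide isomerase of secretory cells, CA12 (6.42), a carbonic anhydrase, SLC39A6 (5.98), a zinc transporter, and AGR3 (5.87), a relative of AGR2. AGR2 was at 18.4 and 22.5 FPKM in MDA-MB-468 and at 2502 and 3681 FPKM in ZR75-1. The 2 genes in the other direction were TPD52L1 (-1.81), named here after its values were seen, and STC2 (-1.04), which encodes a secreted glycoprotein. In PKC412 the counts were 17 higher and 3 lower, beside 21.6% and 37.0% of all genes, with a median of 1.01. Some of the genes counted as higher, AGR3 among them, passed the filter only through ZR75-1, which fixed their direction.

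Treatment called 1 of the 24 target genes in each line, beside 0.946% of all genes in ZR75-1 and 1.26% in MDA-MB-468. With a replicate block within each line, 0 of all genes were called in either line. SIAH2, a ubiquitin ligase, rose in ZR75-1 from a mean of 30.7 ± 6.3 FPKM (SD, n = 2) to 55.9 ± 2.9 FPKM (SD, n = 3), a difference of 0.86 ± 0.15 (SE; adjusted p = 0.0468). STC2 rose in MDA-MB-468 from 6.72 ± 0.24 to 17.9 ± 2.9 FPKM (SD, n = 2 and n = 3), a difference of 1.28 ± 0.18 (SE; adjusted p = 0.0162). The list medians of the treatment differences were 0.05 in ZR75-1 and 0.14 in MDA-MB-468, beside 0.07 and 0.11 over all genes.

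Of 15 coregulators of the receptor, 1 was called higher and 5 lower in ZR75-1 in DMSO, beside 15.9% and 26.5% of all genes. The list median was -0.18 beside -0.11 over all genes. The corepressors and coactivators KDM1A (-1.09), a histone demethylase, TLE3 (-0.91), CARM1 (-0.81), an arginine methyltransferase, and SAFB (-0.70) were among the lower ones. In the treatment contrasts 0 of the 15 passed, beside 0.946% of all genes in ZR75-1 and 1.26% in MDA-MB-468. Among related nuclear receptors, ESRRA, an orphan receptor, was lower in ZR75-1 (-1.04 on the log2 scale). ESR2, the gene of estrogen receptor beta, was not tested, and its highest value in any sample was 0.0230 FPKM.

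**Figure D4:**
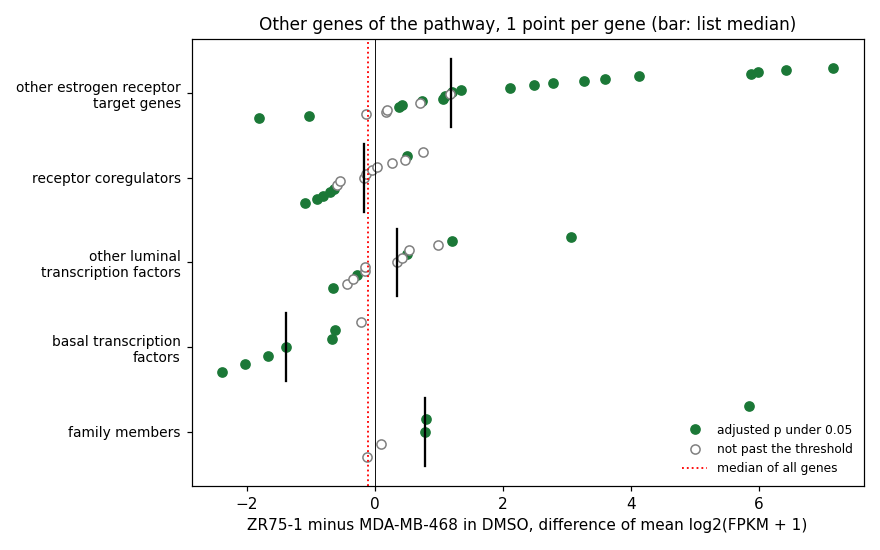
Difference between ZR75-1 and MDA-MB-468 in DMSO, in mean log2(FPKM + 1), for the tested genes of 5 lists (1 point per gene); filled points passed the threshold, black bars are list medians and the dotted line is the median of all genes. The target genes have a median of 1.18 and the basal transcription factors of -1.40.

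In DMSO, 15.9% of all genes were called higher in ZR75-1 and 26.5% lower, with a median of -0.11. Among 14 other transcription factors of luminal cells, 13 were tested, with a median of 0.34 in the same contrast. Of these, 3 were higher in ZR75-1 (TFAP2B by 3.05, MYB by 1.19 and TBX3 by 0.50) and 2 lower, among them STAT5A (-0.65). The other lower gene was ELF5 (-0.29), a factor of luminal progenitors, which also rose with PKC412 in MDA-MB-468 by 0.45 (adjusted p = 0.0287). It went there from 0.180 and 0.261 FPKM in DMSO to at most 0.820 FPKM. MYB is also in the list of target genes. Of 8 relatives of the GATA, forkhead and trefoil genes, 5 tested, FOXA3 (5.84), GATA5 (0.80) and GATA2 (0.78) were higher in ZR75-1. FOXA3, a forkhead relative of FOXA1, had means of 58.0 FPKM in DMSO and 38.0 FPKM in PKC412 in ZR75-1 and was at or below 0.0453 FPKM in MDA-MB-468. TFAP2B, TBX3 and FOXA3 passed the filter only through ZR75-1 and ELF5 only through MDA-MB-468, which fixed their direction between the lines. In the treatment contrasts, BCL11A, a basal factor, rose in MDA-MB-468 by 0.26 (adjusted p = 0.0429), as did PECAM1 by 0.31 (adjusted p = 0.0404), and COL1A1 rose in ZR75-1 by 1.49 (adjusted p = 0.0181), from 2.25 and 2.75 FPKM in DMSO to between 6.65 and 11.1 FPKM. The summed level of the 13 markers of fibroblasts, endothelium and blood was 7.44 to 11.8 FPKM in the treated ZR75-1 samples. Most of this sum was COL1A1, while COL1A2 and COL3A1 were listed at 0 in these samples and the mean of CD14 was 0.574 FPKM. The part of the sum in the other differences was not tested.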

How the data were processed

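RNA of 2 DMSO and 3 PKC412 samples per line was sequenced from Illumina libraries. The authors deposited FPKM per gene symbol, made by an in-house pipeline; the submitters' processing notes name CASAVA 1.82, TopHat2 and the build hg19. FPKM are not counts, no step of a single read was visible, and values below 1e-06 occur, so depth is unknown and no count test was used.

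The test was that of limma (version 3.58.1, run in R version 4.3.3), with log2(FPKM + 1) as the response, which understates changes of low genes. The fit had 4 group means and an eBayes trend and took in the 16071 genes whose group mean exceeded 0.1 FPKM somewhere; p-values were adjusted by Benjamini-Hochberg. The method was tested on simulated data. Separate cultures are not stated, so p-values measure the spread between these samples, which may be technical. With 2 samples against 3, an exact permutation test cannot go below p = 0.1, and none was used.

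The 9 genes and all lists were chosen with earlier results of these data known. The text names all 9, up to 4 called genes per list with the largest difference between lines, genes called in a treatment contrast and the 5 genes nearest to ESR1; others are marked. Some genes of the lists are not reported here. The alternatives were pseudocounts of 0.1 and 0.01, other filters, rescaling by median ratios or to a common FPKM sum, replicate blocks, fits of the compared groups only, eBayes without trend and each sample left out. FPKM adjusted for GC content and length (polynomials of degree 3 per sample against the line mean, over genes matched in GENCODE 29), alone and with a block, were chosen after seeing the data. GC content was matched for 88.1% of genes. Python 3.11.15 with pandas 2.3.3 and matplotlib 3.10.9 did the rest.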

Additional observations from a re-analysis of the deposited data

How the results depend on the processing

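The groups of 2 or 3 samples and the unknown depth limit every value here, and low levels such as those of PGR cannot be placed more closely. Between the lines, 8 of the 9 genes were called in DMSO under all 21 alternatives and 8 or 9 in PKC412, and 0 of the reversals below lay in a contrast between lines. In MDA-MB-468, 0 of the 9 genes were called under all 22 alternatives. PGR was listed at 0 in that line, TFF3 did not exceed 0.0816 FPKM there and GREB1 did not exceed 0.107 FPKM. A fall in these genes was hardly visible at such levels, so the count does not speak to it. A rise by a given ratio also moves log2(FPKM + 1) little there. In ZR75-1 the count of genes changed by PKC412 went from 0 to 1 under median ratios, 3 under the GC and length adjustment and 1 under that adjustment with the replicate block, and the count whose change differs between the lines went from 0 to 2 under the GC and length adjustment. The cause was not tested. With 1 sample left out, these counts stayed at 0.

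Replicate numbers are shared by the groups but nothing ties equal numbers together: the correlations of deviations over 13 pairs with the same number ran from -0.512 to 0.439, and 3 were above 0.1. With the replicate block shared by all groups, 0 of the 9 genes were called by PKC412 in either line, 8 between the lines in DMSO and 9 in PKC412, where PGR passed (0.34, adjusted p = 0.0427). Over all genes the shared block moved the treatment calls from 152 to 23 in ZR75-1 and from 202 to 23 in MDA-MB-468, and the block within each line moved both to 0.

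Of 955 log2 differences under alternatives 36 had the opposite sign, 0 of them called. In ZR75-1 they were GATA3 with a common FPKM sum (0.063) and SPDEF under median ratios (-0.0198). In MDA-MB-468 they were GATA3 under median ratios (-0.090), the GC adjustment (-0.014) and that with the block (-0.022), SPDEF under median ratios (-0.10), TFF3 under the shared block (0.0024) and GREB1 with a common FPKM sum (0.013). In the difference between lines they were ESR1 with pseudocounts of 0.1 (-0.19) and 0.01 (-0.40) and the block within lines (-0.18), XBP1 under median ratios (0.023), SPDEF under the GC adjustment without and with the block (-0.16 in both) and TFF3 with a pseudocount of 0.01 (0.86). With 1 sample left out, PKC412 differences in ZR75-1 ran from -0.034 to 0.71 for ESR1, from -0.29 to 0.0092 for GATA3 and from -0.065 to 0.36 for SPDEF. In MDA-MB-468 they ran from -0.0096 to 0.30 for SPDEF and from -0.024 to 0.014 for GREB1. The differences between the lines' changes ran from -0.20 to 0.55 for ESR1, from -0.62 to 0.45 for FOXA1, from -0.62 to 0.51 for XBP1 and from -0.21 to 0.22 for SPDEF.

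Over all genes, the 152 treatment calls in ZR75-1 and 202 in MDA-MB-468 became 12 and 81 when only the compared groups were fitted and 456 and 581 under the GC and length adjustment. In MDA-MB-468 they became 116 and 103 with pseudocounts of 0.1 and 0.01 and 104 with a common FPKM sum. The 43 calls of the difference between lines became 27, 24 and 28 under these, 68 without the filter or the trend, 9 and 0 under the blocks and 209 under the GC and length adjustment. With 1 sample left out the calls ran from 59 to 183 in ZR75-1, from 65 to 324 in MDA-MB-468 (324 without PKC412 replicate 2 of that line) and from 16 to 64 for the difference. The ZR75-1 count moved by over 1.5 times without any 1 of the MDA-MB-468 samples, ZR75-1 DMSO replicate 1 or ZR75-1 PKC412 replicate 1, the MDA-MB-468 count without any 1 of the MDA-MB-468 samples or ZR75-1 PKC412 replicate 1, and the difference without MDA-MB-468 PKC412 replicate 1 (21) or 3 (16). A DMSO sample left alone in its group is assumed there to vary like the other groups.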
